A study of Mus musculus with 41 samples.

Results

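The regions described here are 1356 MLL3/4 peaks of cultured keratinocytes that express SOX9 without its transactivation domain (ΔTA-SOX9). Each was overlapped by at least 1 bp by a MYC-tag peak of ΔTA-SOX9 and by no MLL3/4 peak of cells that carried wild-type SOX9 (WT-SOX9) and received no doxycycline (DOX). They were 5.23% of the 25948 MLL3/4 peaks of ΔTA-SOX9 cells, and they are called gained ΔTA-SOX9 sites below. The other peaks of that list fell into 6720 that lay at a ΔTA-SOX9 site and on a no-DOX MLL3/4 peak (kept), 5410 that were gained away from ΔTA-SOX9 sites, and 12462 that were kept away from them, so that 6766 peaks (26.1%) were gained in all. Both the absence of a no-DOX peak and the presence of a ΔTA-SOX9 peak chose the regions and are not findings about them: the regions were chosen by the measured MLL3/4 and MYC-tag peaks themselves.

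The series used CUT&RUN (CNR), in which an antibody-tethered nuclease releases the DNA around a chromatin protein for sequencing. The 18 peak lists used were made from 32 of its 41 mouse samples. The cultured cells were keratinocytes derived from back skin of male CD1 mice with K14rtTA, the DOX-dependent activator under the epidermal keratin 14 promoter. The transgene was TRE-myc-Sox9 in WT-SOX9 cells (without DOX and with 1 µg/ml DOX), TRE-myc-Sox9noTA in ΔTA-SOX9 cells and TRE-myc-Sox9noHMG, which lacks the DNA-binding domain, in ΔHMG-SOX9 cells (both with 1 µg/ml DOX). The constructs came in by lentivirus with drug selection, and the cells are not said to be single clones. The skin samples were sorted back-skin epidermal cells of K14rtTA; TRE-myc-Sox9 mice before DOX (D0, postnatal day 21) and after 1 week (W1, day 28), 2 weeks (W2, day 35), 6 weeks (W6, day 63) and 12 weeks (W12, grafted skin) of DOX. Every list pooled 2 samples except the lists of replicate 1, so no group has more than 1 pooled list and no test between groups could be made. Because the lists used hold no ΔTA-SOX9 cells without DOX, the line, the transgene and DOX itself cannot be told apart as sources of a gain.

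SOX9 is an HMG-box transcription factor of hair follicle stem cells, and its transactivation domain recruits cofactors. MLL3 and MLL4 are the histone methyltransferases that place mono-methylation on lysine 4 of histone H3 at enhancers, where they work with the SWI/SNF chromatin remodellers. AP1, a dimer of JUN and FOS family proteins, is abundant at open enhancers of keratinocytes, above all in culture and in wounded skin. At the loci of 8 keratinocyte markers, taken with 10 kb to each side, 8 held an MLL3/4 peak in ΔTA-SOX9 cells, including 4 peaks at Krt14, 5 at Krt5 and 10 at Trp63. Among 6 fibroblast markers 1 did (Col6a3), with 0 peaks at Col1a1, Col1a2, Dcn, Lum and Pdgfra. The immune markers held a peak at 1 of 6 loci, the melanocyte markers at 2 of 6 and the endothelial markers at 4 of 6, against 9248 (42.2%) of all 21938 protein-coding genes.

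The strongest gained ΔTA-SOX9 sites are shown first as sequence, because the words counted below lie in such windows, in some and not in others. Each window below spans 101 bases around the centre of the MYC-tag maximum, on the plus strand of mm10 (GRCm38.p6). The windows belong to the 5 regions with the highest MLL3/4 total signal and to 4 of the 5 with the highest MYC-tag maximum, and each is named by the protein-coding gene with the nearest start. Capitals mark the AP1 word TGAGTCA, the SOX words CCATTGT and CCTTTGT as well as GCATTGT and GCTTTGT, and the AP1 variants TGAATCA or TGACTAA or TGAGTAA, on either strand.
Emp1, chr6:135504659-135504759: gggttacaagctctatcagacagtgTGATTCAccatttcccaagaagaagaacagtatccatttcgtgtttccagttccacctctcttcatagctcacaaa
Has2, chr15:56721535-56721635: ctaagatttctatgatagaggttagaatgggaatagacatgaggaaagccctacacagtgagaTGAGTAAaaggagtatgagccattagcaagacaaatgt
Il12rb2, chr6:67351829-67351929: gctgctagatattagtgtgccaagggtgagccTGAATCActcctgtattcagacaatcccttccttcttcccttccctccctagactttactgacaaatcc
Slc9a4, chr1:40614666-40614766: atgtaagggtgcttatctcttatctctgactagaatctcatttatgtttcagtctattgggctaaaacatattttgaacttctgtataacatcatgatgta
Arhgap17, chr7:123326992-123327092: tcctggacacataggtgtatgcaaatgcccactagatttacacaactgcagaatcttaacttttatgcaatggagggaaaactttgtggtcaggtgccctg
Snx5, chr2:144188290-144188390: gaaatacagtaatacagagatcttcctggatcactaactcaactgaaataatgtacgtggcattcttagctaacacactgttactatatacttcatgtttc
2310034G01Rik, chr19:46352282-46352382: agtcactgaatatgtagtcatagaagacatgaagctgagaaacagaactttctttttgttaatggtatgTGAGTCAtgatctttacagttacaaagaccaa
Gm14325, chr2:177837883-177837983: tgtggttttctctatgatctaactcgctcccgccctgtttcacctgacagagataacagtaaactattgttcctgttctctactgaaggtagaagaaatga
Psma1, chr7:114316447-114316547: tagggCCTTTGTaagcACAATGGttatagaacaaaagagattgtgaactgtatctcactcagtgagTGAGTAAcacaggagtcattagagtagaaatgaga
Of these 9 windows, 1 held the exact AP1 word, 4 held an AP1 variant, 1 held SOX words and 4 held none of these.

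The SEACR peak caller gives each peak a total signal, the sum of the coverage over its bases, and a maximum. In the pooled MLL3/4 lists both are whole numbers, which reads as coverage without scaling although the methods describe tracks scaled to RPKM, so they were ranked only within the ΔTA-SOX9 list. The region of highest total signal (8526, maximum 36) lay between genes on chr6:135504441-135505005, 137233 bp from the nearest start, that of Emp1, which encodes an epithelial membrane protein. Its MYC-tag maximum was 6564 RPKM, or 32 fragments, and it recurred in no other list. The next, at chr15:56721133-56721840, lay 27058 bp from Has2, the gene of a hyaluronan synthase, with a total signal of 8090, a maximum of 30 and 43 MYC-tag fragments. It too recurred in no other list.

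The remaining regions of the first ranking lay in introns. The Il12rb2 region (chr6:67351709-67351999, an interleukin 12 receptor subunit) had a total signal of 5719 and 29 MYC-tag fragments. It was the only one of these 5 that the no-DOX list of replicate 1 alone also held, and it recurred in ΔHMG-SOX9 cells. The Slc9a4 region (chr1:40614365-40614874, a sodium-proton exchanger) had a total signal of 5701 and 17 fragments, and it recurred in ΔHMG-SOX9 cells. The Arhgap17 region (chr7:123326697-123327205) had a total signal of 5666 and 16 fragments, and lay on a no-DOX MYC-tag peak of replicate 1. These 5 regions of highest signal ranked from 449 to 1385 in the whole ΔTA-SOX9 MLL3/4 list of 25948, and 0 of them overlapped a SOX9 or MLL3/4 peak of skin.

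The 5 regions with the highest MYC-tag maximum had a weaker MLL3/4 signal, with ranks from 83 to 632 among the 1356. The intronic Gm14325 region (chr2:177837843-177838064) reached 14563 RPKM, or 71 fragments, with an MLL3/4 total signal of 2089. It recurred widely, on SOX9 peaks of skin at W1, W2, W6 and W12, on MLL3/4 peaks of skin at W1 and W2 but not at D0, and on the WT-SOX9 MYC-tag and MLL3/4 and ΔHMG-SOX9 MLL3/4 lists with DOX. The Psma1 region (chr7:114316421-114316658, 58 fragments, total signal 1416), which holds the SOX words, overlapped a W12 SOX9 peak and a W1 MLL3/4 peak of skin. The 2310034G01Rik region (chr19:46352175-46352557, 45 fragments, total signal 2292), which holds the AP1 word, lay on WT-SOX9 MYC-tag and MLL3/4 peaks, on a ΔHMG-SOX9 MLL3/4 peak and on W6 and W12 SOX9 peaks. The Snx5 region (chr2:144188174-144188482, 46 fragments, total signal 2749) and that of AW554918 (50 fragments, total signal 1895) recurred in no other list. The Snx5 region lay within 1 kb of an annotated start, but 64393 bp from the nearest one of a protein-coding gene.

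Among themselves the gained ΔTA-SOX9 sites were narrow and of modest signal. Their width had a median of 267 bp (108 to 828 bp), their total signal a median of 1359 (869 to 8526) and their maximum a median of 11 (4 to 48). The medians of kept peaks at ΔTA-SOX9 sites were 345 bp, 2727 and 18, and those of peaks gained elsewhere were 245 bp, 1104 and 10. Of the 1356 regions, 62 (4.57%) were in the top quintile of the ΔTA-SOX9 list by total signal and 303 (22.3%) in the lowest. Of the kept peaks at ΔTA-SOX9 sites, 46.3% were in the top quintile. The gained ΔTA-SOX9 sites lay between the peaks gained elsewhere and the kept peaks in signal.

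The ΔTA-SOX9 signal on them was close to that on kept peaks. The MYC-tag maximum had a median of 3077 RPKM (1846 to 14563), or 15 fragments (9 to 71) at 205 RPKM for 1 fragment. That step puts the pooled samples at 4.88 M fragments if the track was counted base by base. On kept peaks it had a median of 3487 RPKM, or 17 fragments. For 137 regions (10.1%) the maximum was 9 or 10 fragments, just above the limit of 1800 RPKM that the deposited list had. The MYC-tag and MLL3/4 maxima lay a median of 41 bp apart, and in 773 regions (57.0%) they were within 50 bp of each other. The rule asks for these peaks to overlap, so their closeness is in part set by it, and it was not counted for kept peaks. Only 4 regions held more than 1 MYC-tag peak.

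Few regions sat at the edges of the rule. The overlap with the MYC-tag peak had a median of 203 bp and was 20 bp or less in 3 regions. The gap to the nearest no-DOX MLL3/4 peak had a median of 15126 bp, was at most 1 kb for 144 regions, and was 20 bp or less for 3. For 789 regions (58.2%) no such peak lay within 10 kb. Just outside the rule, 1 ΔTA-SOX9 MLL3/4 peak at a ΔTA-SOX9 site overlapped a no-DOX peak by 20 bp or less, and 9 peaks gained elsewhere had a MYC-tag peak within 20 bp.

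Whether the gains recurred in the other DOX-treated cells was looked up next, with each share given with its 95% Wilson interval, which covers counting error only. The ΔHMG-SOX9 MLL3/4 list held 301 of the 1356 regions (22.2%, 20.1 to 24.5), against 62.3% of all ΔTA-SOX9 MLL3/4 peaks and 1.07% of the same regions moved by 10 kb. The WT-SOX9 list with DOX held 106 of them (7.82%, 6.50 to 9.37), against 20.5% of all peaks and 0.590% after the move. The ΔHMG-SOX9 list has 23301 peaks and the WT-SOX9 list 10543, so these shares come from lists of unlike length. Both lists held 46 regions (3.39%, against 18.9% of all peaks and 0.721% of peaks gained elsewhere). In neither were 995 (73.4%, 71.0 to 75.7), against 36.2% of all peaks and 80.1% (79.0 to 81.2) of peaks gained elsewhere. The lower shares than those of kept peaks (84.5% and 40.2%) are partly what the rule chose, since the no-DOX list stands in it.

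**Figure D1:**
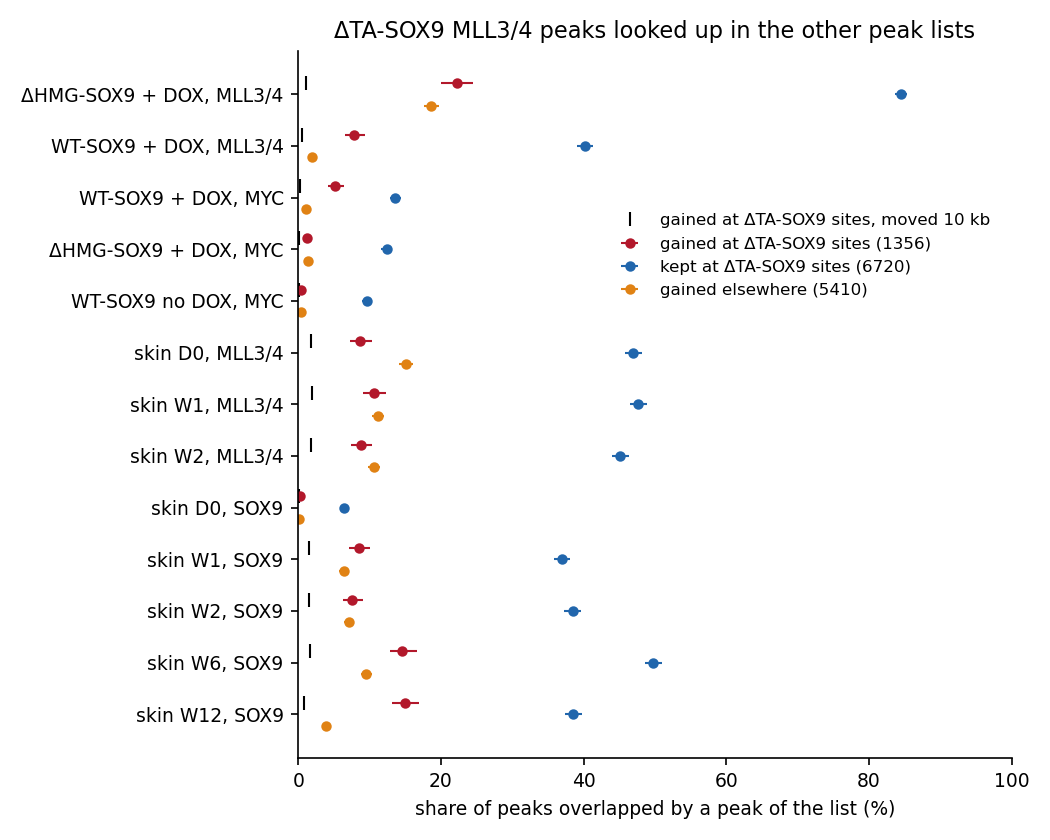
Share of ΔTA-SOX9 MLL3/4 peaks (x axis, %) that overlap a peak of each other list (y axis), for 1356 gained ΔTA-SOX9 sites, 6720 kept peaks at ΔTA-SOX9 sites and 5410 peaks gained elsewhere. Points are shares, horizontal lines 95% Wilson intervals, and black ticks the 1356 regions moved by 10 kb. The gained ΔTA-SOX9 sites reach 22.2% on the ΔHMG-SOX9 MLL3/4 list and 14.9% on the W12 SOX9 list of skin, always above the black tick, and the kept peaks are the highest on every line.

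Against the peaks gained elsewhere, which share the no-DOX part of the rule, the regions were more often on a WT-SOX9 MLL3/4 peak (7.82% against 1.96%, a difference of 5.86 points, 95% Newcombe interval 4.48 to 7.44). On the ΔHMG-SOX9 list the difference was 3.57 points (1.18 to 6.07), with 22.2% against 18.6%. Signal moved with the share on the ΔHMG-SOX9 list. It was 14.2% in the lowest quintile of total signal (43 of 303) and 53.2% in the top quintile (33 of 62), and for peaks gained elsewhere it was 12.7% and 43.8%. In each quintile the intervals of both classes overlapped on the ΔHMG-SOX9 list. On the WT-SOX9 list the regions were at 6.93%, 7.80%, 7.96%, 7.14% and 14.5% from the lowest quintile to the top, and the peaks gained elsewhere at 1.75%, 2.13%, 2.47%, 1.48% and 0 of 48 (upper bound 7.41%).

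**Figure D2:**
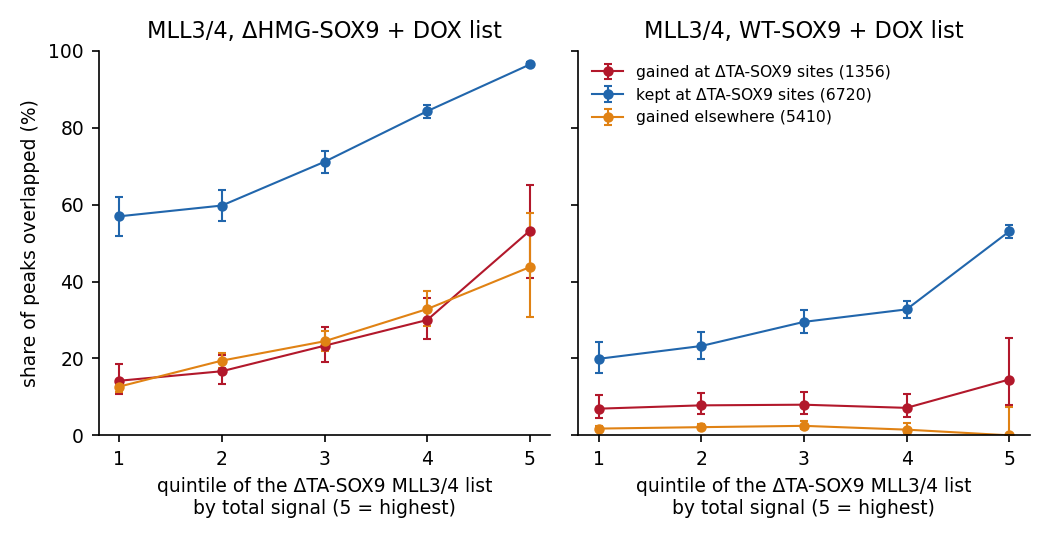
Share of peaks (y axis, %) overlapped by an MLL3/4 peak of ΔHMG-SOX9 cells (left) or WT-SOX9 cells (right) with DOX, by quintile of the ΔTA-SOX9 MLL3/4 list in total signal (x axis, 5 the highest). Points are shares and bars 95% Wilson intervals. On the left the gained ΔTA-SOX9 sites and the peaks gained elsewhere rise together, from 14.2% and 12.7% to 53.2% and 43.8%. On the right the gained ΔTA-SOX9 sites stay between 6.93% and 14.5%, and the peaks gained elsewhere at 2.47% or less.

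The no-DOX list of replicate 1 alone held 301 of the 1356 regions (22.2%, 20.1 to 24.5), although the pooled no-DOX list held none by the rule, and 77.4% of all ΔTA-SOX9 MLL3/4 peaks. The moved regions were at 1.66%, and the share was 19.4% for peaks gained elsewhere. The replicate 1 list was the longer one, with 40061 peaks against 33975 in the pooled no-DOX list. In neither of the DOX lists nor the replicate 1 list were 810 regions (59.7%, 57.1 to 62.3), against 18.1% of all peaks and 67.0% (65.7 to 68.2) of peaks gained elsewhere. Regions absent from both no-DOX lists numbered 1055, and 198 of these (18.8%) were on the ΔHMG-SOX9 list. That restriction was not applied to other peaks. Without it the ΔHMG-SOX9 list held 62.3% of all ΔTA-SOX9 MLL3/4 peaks and 18.6% of peaks gained elsewhere.

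Peaks of the other forms of SOX9 were looked up on the regions. WT-SOX9 MYC-tag peaks with DOX lay on 70 of 1356 (5.16%, 4.11 to 6.47), against 5.93% of all ΔTA-SOX9 MLL3/4 peaks and 0.295% after the move, so that the interval of the regions holds the share of all peaks. Peaks gained elsewhere were at 1.04%. MYC-tag peaks of ΔHMG-SOX9 lay on 16 regions (1.18%, 0.728 to 1.91), against 6.78% of all peaks, and those without DOX on 6 (0.442%, 0.203 to 0.962), against 5.1%. With the no-DOX MLL3/4 list of replicate 1 in the rule in place of the pooled one, the latter became 3 of 1144 (0.262%, 0.0892 to 0.768). The no-DOX MYC-tag list of replicate 1 lay on 25 regions (1.84%, 1.25 to 2.71), against 11.4%. That list was not cut at 1800 RPKM, and its weakest peak held 2 fragments against 9 in the pooled no-DOX list, so their counts are not alike. Of the 70 regions on a WT-SOX9 MYC-tag peak, 56 (80.0%, 69.2 to 87.7) were also on a WT-SOX9 MLL3/4 peak, and 14 were not. Over all ΔTA-SOX9 MLL3/4 peaks on a WT-SOX9 MYC-tag peak the share was 75.3%, within that interval. Of the other 1286 regions 50 (3.89%, 2.96 to 5.09) were on a WT-SOX9 MLL3/4 peak, against 17% of all peaks off WT-SOX9 MYC-tag peaks. WT-SOX9 MYC-tag peaks were called at a depth of 6.09 M fragments and those of ΔHMG-SOX9 at 4.04 M, so a region missing from them may hold signal under their limits.

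In skin, the gained ΔTA-SOX9 sites were found more often on late than on early SOX9 peaks. SOX9 peaks lay on 4 regions at D0 (0.295%), 115 at W1 (8.48%, 7.11 to 10.1), 102 at W2 (7.52%, 6.24 to 9.05), 198 at W6 (14.6%, 12.8 to 16.6) and 202 at W12 (14.9%, 13.1 to 16.9). Over all ΔTA-SOX9 MLL3/4 peaks these shares were 2.73%, 24.4%, 27.3%, 32.9% and 17.5%, and the share of the regions was nearest to it in ratio at W12. After the move by 10 kb they were between 0.111% and 1.70%. The W1, W2, W6 and W12 lists held 15651, 18657, 20579 and 9745 peaks, so the W6 list was the longest of these and the W12 list the shortest. Their depths were 17.4, 13.1, 23.8 and 21.8 M fragments, so both late lists were deeper than both early ones. Neither length nor depth was tested as a source of the late shares. Peaks gained elsewhere were at 3.88% at W12 (interval of the difference 9.14 to 13.1 points) and at 6.34% at W1, a difference of 2.14 points (0.613 to 3.86).

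Any SOX9 list from W1 to W12 held 298 regions (22.0%, 19.9 to 24.3), against 40.5% of all ΔTA-SOX9 MLL3/4 peaks. Of these 298, 160 (53.7%, 48.0 to 59.3) were on W6 or W12 peaks without a W1 or W2 peak, 33 on W1 or W2 peaks without a later one and 105 on both. Among kept peaks at ΔTA-SOX9 sites the first of these shares was 26.8% (25.5 to 28.2), among peaks gained elsewhere 31.6% (28.4 to 35.1) and among all ΔTA-SOX9 MLL3/4 peaks 23.9% (23.1 to 24.8). The W12 skin was grafted, and the W6 skin is not described as grafted. Whether grafting bears on these shares was not tested. The mice grew older with the weeks of DOX, so time on DOX and age cannot be told apart.

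MLL3/4 peaks of skin lay on 118 regions at D0 (8.70%, 7.32 to 10.3), on 143 at W1 (10.5%, 9.02 to 12.3) and on 119 at W2 (8.78%, 7.38 to 10.4), against 40.7%, 35.3% and 34.9% of all ΔTA-SOX9 MLL3/4 peaks. The 3 intervals overlap. Any of the 3 lists held 195 regions (14.4%), against 47.9% of all peaks and 20.1% of peaks gained elsewhere. On a W1 or W2 peak without a D0 peak were 77 (5.68%, 4.57 to 7.04), against 7.23% and 5.03%. Neither SOX9 nor MLL3/4 was listed in skin at 1005 of the 1356 regions (74.1%, 71.7 to 76.4), against 45.8% of all peaks and 76.3% (75.1 to 77.4) of peaks gained elsewhere. The intervals of the regions and of the peaks gained elsewhere overlap.

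The same rule was then applied to WT-SOX9. In WT-SOX9 cells with DOX, 2357 MLL3/4 peaks lay on a WT-SOX9 MYC-tag peak and on no no-DOX MLL3/4 peak. On skin SOX9 peaks they were at 32.3% at W1, 47.0% at W6 and 37.8% at W12, so that the gained ΔTA-SOX9 sites differed from them by -23.8, -32.4 and -22.9 points. On D0 MLL3/4 peaks of skin they were at 4.96% and the ΔTA-SOX9 regions at 8.70%, a difference of 3.74 points (2.06 to 5.55). On W1 MLL3/4 peaks they were at 27.3%, and the ΔTA-SOX9 regions at 10.5%. On the ΔHMG-SOX9 MLL3/4 list they were at 4.07%, and the ΔTA-SOX9 regions 18.1 points higher (15.8 to 20.5).

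Words in the sequence differed between these sets too. The AP1 word TGAGTCA lay within 50 bp of the MYC-tag maximum in 316 of the 1356 gained ΔTA-SOX9 sites (23.3%, 21.1 to 25.6), against 25.8% of all 11341 ΔTA-SOX9 MYC-tag peaks and 1.70% of windows 1 kb away. At WT-SOX9 gains it was in 4.62% (3.85 to 5.55), a difference of 18.7 points (16.3 to 21.1). The SOX words were in 171 regions (12.6%, 10.9 to 14.5), against 12.6% of all ΔTA-SOX9 MYC-tag peaks and 6.19% of windows 1 kb away. They were in 39.4% (37.5 to 41.4) of WT-SOX9 gains, a difference of -26.8 points (-29.4 to -24.1). All words were counted on both strands, and no AP1 word is also a SOX word.

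The AP1 and SOX shares were not particular to the gains among ΔTA-SOX9 sites. Kept peaks at ΔTA-SOX9 sites were at 25.3% and 11.2%, with differences from the gained sites of -2.01 points (-4.42 to 0.531) and 1.42 points (-0.414 to 3.43). Around the MLL3/4 maximum, 27.1% of the gained sites and 24.2% of peaks gained elsewhere held the AP1 word (background 24.9%), a difference of 2.91 points (0.330 to 5.58). The SOX words there were in 10.3% and 5.49% (background 6.35%), a difference of 4.83 points (3.20 to 6.66).

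**Figure D3:**
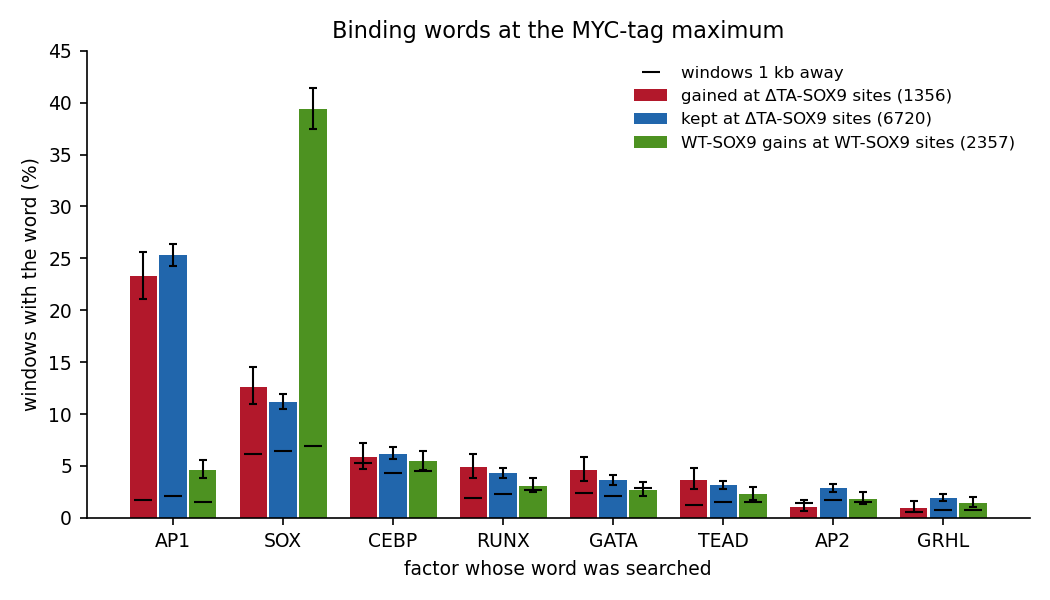
Share of windows of 101 bp around the MYC-tag maximum (y axis, %) that hold a word of each factor (x axis), for gained and kept ΔTA-SOX9 sites and for WT-SOX9 gains. Bars are shares, error bars 95% Wilson intervals and black dashes the windows 1 kb to each side. AP1 stands at 23.3% and 25.3% in both ΔTA-SOX9 classes against 4.62% in WT-SOX9 gains, and SOX at 12.6% and 11.2% against 39.4%.

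Other words were rarer. RUNX (AACCACA) was in 4.87% of the gained ΔTA-SOX9 sites against 1.88% of windows 1 kb away, the words of GATA factors (AGATAAG, with another that ends in C) in 4.57% against 2.36%, and TEAD (ACATTCC), which is read by the partners of YAP, in 3.69% against 1.22%. Over all ΔTA-SOX9 MYC-tag peaks they were in 4.38%, 3.77% and 3.32%. The CEBP word TTGCNNAA was in 5.83% against 5.27% (6.3% of all ΔTA-SOX9 MYC-tag peaks), and its interval (4.70 to 7.20) holds the value of the windows 1 kb away. GRHL (AACCNGTT) was in 0.959% and AP2 (GCCNNNGGC) in 1.03%, against 1.49% and 2.39% of all ΔTA-SOX9 MYC-tag peaks. Their differences from kept peaks at ΔTA-SOX9 sites were -0.961 points (-1.50 to -0.222) and -1.82 points (-2.42 to -1.04). The CRE word TGACGTCA, ETS (CCGGAAG), CTCF and TP63 words were in at most 3 regions each, against 0.212%, 0.485%, 0.106% and 0.132% of all ΔTA-SOX9 MYC-tag peaks. None of the 12 words was in 718 of the regions (52.9%, 50.3 to 55.6), against 50.3% of all ΔTA-SOX9 MYC-tag peaks and 51.2% of kept peaks at ΔTA-SOX9 sites.

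A count of all words of 7 letters, made without a list of factors, put the AP1 word first in excess over windows 1 kb away. TGACTAA (166 regions, 12.2% against 1.73%) and TGAATCA (155 regions, 11.4% against 1.88%) came next. Together with TGAGTAA (107 regions, 7.89% against 0.959%) they were the words among the 12 of largest excess that differ from the AP1 word by 1 letter. The AP1 word or a variant was in 669 regions (49.3%, 46.7 to 52.0) and in 6.16% of windows 1 kb away. The share was 48.0% in all ΔTA-SOX9 MYC-tag peaks, 44.9% in kept peaks at ΔTA-SOX9 sites and 13.2% in WT-SOX9 gains. These variants were picked for their excess in the same regions, so the value is a description.

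The AP1 words sat under the MYC-tag signal. Positions were counted in the gained ΔTA-SOX9 sites only, so they are not shown to be particular to these sites. Of 804 AP1 words within 250 bp of the maximum, 225 were within 25 bp, with a median distance of 56.5 bp. Their density fell from 3.45 and 3.16 words per 1000 bases beside the maximum to 0.295 at 225 to 250 bp. The SOX words had a median distance of 85 bp, with 118 of 628 within 25 bp. RUNX words had a median distance of 99 bp and TEAD words of 87 bp.

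**Figure D4:**
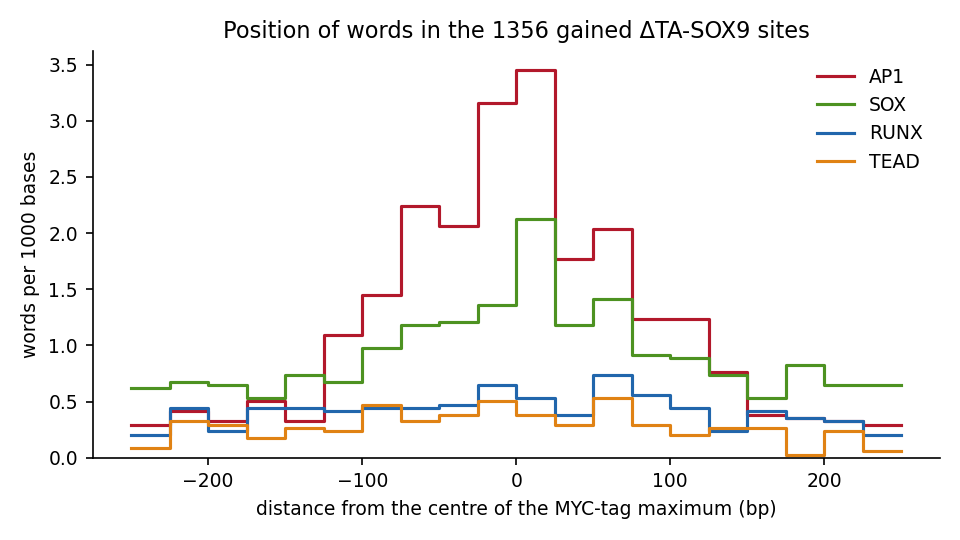
Number of words per 1000 bases (y axis) in steps of 25 bp of distance from the centre of the MYC-tag maximum (x axis, bp), over the 1356 gained ΔTA-SOX9 sites, for AP1, SOX, RUNX and TEAD words on both strands. AP1 words are densest beside the maximum, at 3.16 and 3.45 per 1000 bases, and fall to 0.295 at the edges, while RUNX and TEAD words stay under 1 throughout.

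Regions with and without the AP1 word were much alike otherwise. The 316 with the word had a median MLL3/4 total signal of 1319.5 and a median MYC-tag maximum of 15 fragments, and the 1040 without it 1369.5 and 16. On the ΔHMG-SOX9 MLL3/4 list they were at 24.4% and 21.5%, a difference of 2.83 points (-2.29 to 8.39), and on the WT-SOX9 list at 6.65% and 8.17%, a difference of -1.53 points (-4.43 to 2.10). On W12 SOX9 peaks of skin the interval excluded 0, with 19.6% and 13.5%, a difference of 6.16 points (1.59 to 11.3). That is 1 of 15 lists looked up. In the tertiles of lowest, middle and highest maximum the SOX words were in 11.4%, 9.73% and 17.2% of regions, and the AP1 word in 24.5%, 21.6% and 23.9%. The intervals of the lowest and highest tertile overlap for both words, and those of the middle and highest tertile do not for SOX.

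A related question is which unoccupied ΔTA-SOX9 sites gained MLL3/4. Of the 11341 ΔTA-SOX9 MYC-tag peaks, 3595 (31.7%) lay on no no-DOX MLL3/4 peak, and 1373 of these (38.2%, 36.6 to 39.8) were overlapped by an MLL3/4 peak of ΔTA-SOX9 cells. The share rose with ΔTA-SOX9 signal, from 29.9% (26.7 to 33.2) of 760 sites with a maximum of 1846 to 2256 RPKM to 53.1% (49.3 to 56.9) of 670 sites of 4102 RPKM or more. Both the signal and the gain were read from lists that the rule used, so these shares are a description and were not tested. The sites without MLL3/4 had SOX words more often (16.2% against 12.5%, a difference of -3.70 points, -5.99 to -1.34) and the AP1 word slightly more often (26.3% against 23.2%, -3.05 points, -5.90 to -0.130). On W12 SOX9 peaks of skin both classes were close, at 15.8% and 14.7%, and on WT-SOX9 MYC-tag peaks the sites without MLL3/4 were at 8.28% and those with it at 5.24%. On the ΔHMG-SOX9 MLL3/4 list the order was the opposite, with 6.30% of the sites without and 22.4% of the sites with MLL3/4.

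Most gained ΔTA-SOX9 sites were far from promoters. Of the 1356, 681 (50.2%) were intergenic, 507 (37.4%) in introns, 63 (4.65%) in exons and 105 (7.74%, 6.44 to 9.29) within 1 kb of an annotated start, against 42.2%, 35.5%, 4.59% and 17.8% of all ΔTA-SOX9 MLL3/4 peaks. The promoter share differed by -5.19 points (-6.73 to -3.46) from kept peaks at ΔTA-SOX9 sites and by -5.25 points (-6.85 to -3.48) from peaks gained elsewhere, and it did not separate from that of WT-SOX9 gains (8.10%, a difference of -0.360 points, -2.11 to 1.50). The median distance to the start of a protein-coding gene was 26151 bp, against 14845 bp over all ΔTA-SOX9 MLL3/4 peaks, 16553 bp for peaks gained elsewhere and 26471 bp for WT-SOX9 gains. The windows had a median GC content of 42.6%, the same as over all ΔTA-SOX9 MYC-tag peaks, and 44.6% for kept peaks at ΔTA-SOX9 sites. They held a CpG in 52.0% of cases, against 56.3% of all ΔTA-SOX9 MYC-tag peaks and 60.9% of the kept ones. The centre lay in a masked repeat in 95 regions (7.01%, 5.77 to 8.49), against 8.02% of all ΔTA-SOX9 MYC-tag peaks.

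By chromosome the regions were between 2.91 per 100 ΔTA-SOX9 MLL3/4 peaks on X and 7.23 on chromosome 18, with 11 regions on X, and the ratios of ΔTA-SOX9 to no-DOX MLL3/4 peaks on these were 0.582 and 0.838. When neighbours within 50 kb were chained, 1120 regions (82.6%) stood alone and 3 chains reached 4 regions, the longest. The larger sets stood alone less often, with 69.8% of the 2357 WT-SOX9 gains and 58.5% of the 5410 peaks gained elsewhere, and the number of peaks in a set bears on this share by itself. A chain on chr2:79124238-79167490 lay nearest to Itga4, an integrin subunit, and another on chr1:69397672-69441183 nearest to Ikzf2, a zinc finger factor of lymphocytes. The third, on chr18:32797133-32869703, took in Tslp, the epidermal cytokine of allergic inflammation, and Wdr36. All 4 of its regions were missing from every other list, with total signals of 902 to 1723 and 12 to 24 MYC-tag fragments.

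Genes with the most regions, counted in the gene and 50 kb to each side, were often long. Fgfr2, the keratinocyte growth factor receptor, and Frmd4b, a cytoskeletal adaptor, had 5 each. The annotated span of Fgfr2 is 2960900 bp and reaches past its neighbours, and only 1 of its 5 regions had Fgfr2 as the nearest start. The Frmd4b gene spans 330675 bp, and its regions all lay in introns, at 24, 58, 202, 622 and 694 bp from a no-DOX MLL3/4 peak. They had total signals of 939 to 2145, and 3 of the 5 recurred in no list. Macrod2, Anks1b, Cubn, Abca12, Gm20388, Tslp, Wdr36 and Ldlrad4 had 4 each, against 0 for 92.0% of the 21938 protein-coding genes. Abca12 encodes a lipid transporter of the epidermal barrier, and its 4 regions were intronic with total signals of 1053 to 2395, 2 of them on the ΔHMG-SOX9 MLL3/4 list. The 4 regions of Anks1b, a gene best known from neurons, lay at least 26495 bp from a no-DOX MLL3/4 peak.

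The share of genes with a gained ΔTA-SOX9 site within 50 kb was looked up for 13 gene lists, which were chosen with earlier results of these data known. It was 7.96% over all protein-coding genes and 12.1% over the 14466 with any ΔTA-SOX9 MLL3/4 peak in reach. Of 19 genes of inflammation and NF-kB signalling 10 had one (52.6%, 31.7 to 72.7), from 12 different regions. Tslp had 4, and Nfkb2, an NF-kB subunit, had the 2310034G01Rik region with its AP1 word. Tnfaip3, a brake on NF-kB, had 1 on chr10:19028385-19028664, with a total signal of 1516, which lay on D0 MLL3/4 and on W6 and W12 SOX9 peaks of skin.

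Of 21 genes of stress keratins and wound response 9 had one (42.9%, 24.5 to 63.5), from 6 different regions, since neighbouring keratins share theirs. S100a8 and S100a9, alarmins of inflamed epidermis, shared a region on chr3:90658949-90659304 with a total signal of 3668, 13 MYC-tag fragments and an AP1 word, which recurred in ΔHMG-SOX9 cells. Serpinb2, a protease inhibitor, had a region 66 bp from its start, on chr1:107511283-107511767 (total signal 2633, 26 fragments). That region was on every skin list of SOX9 and MLL3/4, D0 included, on the ΔHMG-SOX9 MLL3/4 list, on the no-DOX MLL3/4 list of replicate 1 and on a no-DOX MYC-tag peak of that replicate.

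Of 15 genes of basal keratins and hemidesmosomes 6 had one (40.0%, 19.8 to 64.3). Dst, which links hemidesmosomes to keratin filaments, had 2, of which the region on chr1:33900212-33900443 held 2 AP1 words and lay on a W12 SOX9 peak. Lamb3, a chain of laminin 332, had an intronic one with a total signal of 2080. Krt14 had one on chr11:100215519-100215811 (total signal 2018, 10 fragments), which recurred in ΔHMG-SOX9 cells. Of 12 genes of epithelial-mesenchymal transition 4 had one (33.3%, 13.8 to 60.9). Zeb2, a repressor of E-cadherin, had 2, with total signals of 1910 and 1637, Cdh2, which is N-cadherin, had 2 in an intron, with 1892 and 1429, and Sparc and Vim had 1 each.

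**Figure D5:**
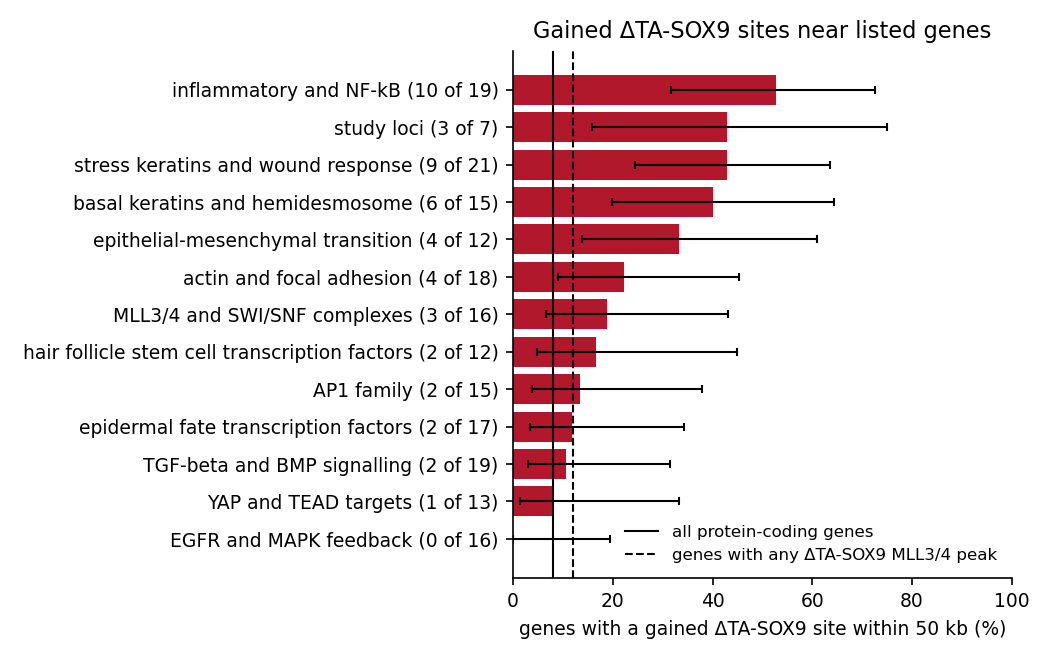
Share of genes of each list (x axis, %) with a gained ΔTA-SOX9 site in the gene or within 50 kb, with the count beside each list name (y axis). Bars are shares with 95% Wilson intervals, the solid line is the share of all protein-coding genes (7.96%) and the dashed line that of genes with any ΔTA-SOX9 MLL3/4 peak in reach (12.1%). The inflammation, stress keratin, basal keratin and epithelial-mesenchymal transition lists and the 7 study loci lie above both lines with their intervals, and the EGFR and MAPK feedback list has 0 of 16.

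The remaining lists had intervals that reached the share of 12.1%. They were 4 of 18 genes of actin and focal adhesion (Cald1 with 2, Tpm1, Anxa1 and Actn1), 3 of 16 of the MLL3/4 and SWI/SNF complexes (Ash2l, Wdr5, Smarcc1), 2 of 12 transcription factors of hair follicle stem cells (Foxc1, Lhx2), 2 of 15 AP1 genes (Bach2, Batf), 2 of 17 epidermal fate factors (Grhl2, Trp63), 2 of 19 of TGF-beta and BMP signalling (Smad2, Smad4) and 1 of 13 targets of YAP and TEAD (Ccn1). None of 16 genes of EGFR and MAPK feedback had one, although all 16 had a ΔTA-SOX9 MLL3/4 peak in reach. The genes in a list can share regions and differ in length, and over the 4005 protein-coding genes with 5 or more ΔTA-SOX9 MLL3/4 peaks in reach the share was 18.3%. The intervals of the epithelial-mesenchymal transition list and of the study loci hold that value, and those of the inflammation, stress keratin and basal keratin lists lie above it. With a reach of 10 kb, 3.66% of all protein-coding genes and 8.67% of those with a ΔTA-SOX9 MLL3/4 peak in reach had a region. At that reach 5 of 15 genes of the basal keratin list had one (33.3%, 15.2 to 58.3), above both shares. A share over genes with 5 or more ΔTA-SOX9 MLL3/4 peaks was not taken at that reach. The intervals of 4 of 21 stress keratin and wound genes (7.67 to 40.0%), 3 of 19 inflammation genes (5.52 to 37.6%) and 2 of 12 genes of epithelial-mesenchymal transition (4.70 to 44.8%) held the share of 8.67%.

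At 7 loci that the study followed, 3 held a gained ΔTA-SOX9 site within 50 kb and 0 within 10 kb. The Trp63 locus, of the master factor of stratified epithelium, had 1 beyond the gene on chr16:25902476-25902732. Its total signal was 1147, its MYC-tag maximum 16 fragments, and it held an AP1 word and lay on a W12 SOX9 peak of skin and on the ΔHMG-SOX9 MLL3/4 list. The Krt5 locus had 1 on chr15:101694861-101695107, 727 bp from the start of its neighbour Krt6a, a keratin of wounded epidermis. This region (total signal 957, 16 fragments) was on MLL3/4 peaks of WT-SOX9 and ΔHMG-SOX9 cells, on a WT-SOX9 MYC-tag peak, and on W2 MLL3/4 and W6 and W12 SOX9 peaks of skin. It lay 165 bp from a no-DOX MLL3/4 peak and was on the no-DOX list of replicate 1. The Vim locus had 1 on chr2:13526294-13526499, nearest to the start of Trdmt1, with a total signal of 1178 and an AP1 word, and was on the no-DOX MLL3/4 list of replicate 1. Gata3, Runx1, Ctnnb1 and Sox9 itself had 0, with 2, 9, 4 and 3 ΔTA-SOX9 MLL3/4 peaks in reach.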

How the data were processed

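Read pairs were trimmed (Skewer) and mapped to mm10 (Bowtie2 2.2.9) by the authors, who removed duplicates with Picard, kept fragments up to 120 bp with SAMtools 1.3.1, combined replicates, made tracks with deepTools 3.1.2 and called peaks with SEACR (stringent, threshold 0.01). In the deposited MYC-tag and SOX9 lists and both replicate 1 lists the maximum is in RPKM, scaled by the authors to library size; the pooled ones were kept above 1800. The deposited pooled MLL3/4 lists hold whole numbers, taken as unscaled signal (the maximum) and its sum over a peak, a score named total signal, although the methods describe tracks in RPKM, so their depth is unknown and signals in different units were never compared. The RPKM of 1 fragment was the largest step of which all maxima are whole multiples. Depths in fragments were derived from it and hold if tracks were counted base by base, which the methods do not state.

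Peaks were read with Python 3.11.15, pandas 2.3.3, numpy 2.4.6 and pysam 0.24.0, with scipy 1.17.1 for intervals and matplotlib 3.10.9 for drawing. The mitochondrial sequence was left out. Groups came from the labels; for WT-SOX9 with DOX, both MLL3/4 samples are described as replicate 2 although their titles number them 1 and 2. The 9 samples of JUN, ARID1a and BRG1 were not analysed here. Sequence came from RefSeq (GRCm38.p6) and genes from GENCODE vM21. Coordinates count from 1. A promoter came before an exon and an exon before an intron. Lookups and word counts were tested on simulated data. With 1 list a group no test was made, and Wilson and Newcombe intervals at 95% over peaks stand in its place.

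The regions, words and gene lists were chosen with earlier results of these data known. The named regions were the 5 of highest MLL3/4 total signal and the 5 of highest MYC-tag maximum, and the named genes the 10 with most regions, up to 3 per gene list and 7 loci of the study. The chains and the count of all words of 7 letters were added after the values were seen.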

Additional observations from a re-analysis of the deposited data

How the results depend on the processing

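The 13 results were recomputed under 14 alternatives, giving 116 values, of which 89 stayed within 1.5 times (for the number of regions) or within the interval of the reported share. The number of regions, 1356, became 710 with the top 50% of each list and 495 with a MYC-tag maximum above 3600 RPKM. Above 3600 RPKM the shares became 11.3% on WT-SOX9 MLL3/4, 24.8% on ΔHMG-SOX9 MLL3/4, 8.69% on WT-SOX9 MYC-tag and 10.1% on W1 SOX9 peaks, 15.4% with a SOX word, and 49.5% of unoccupied sites with a gain. With the top 50% of each list 21.1% held the AP1 word. With windows of 100 bp to each side, the AP1 share became 37.8% and the SOX share 22.4%, and around the MLL3/4 maximum 27.1% and 10.3%. Promoters of 2.5 kb held 15.4%. With lists of equal size the shares were 6.89% on W1 SOX9, 6.71% on D0 MLL3/4, 2.86% (1 of 35) on ΔHMG-SOX9 MYC-tag and 0 of 12 on no-DOX MYC-tag peaks, and the last was also 0 when ΔTA-SOX9 peaks on no-DOX MYC-tag peaks were left out, by construction. Genes of the lists with a region fell from 23.2% to 10.3% at 10 kb, and those of all protein-coding genes from 7.96% to 3.66%.

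With the no-DOX MLL3/4 list of replicate 1 alone there were 1144 regions, the no-DOX MYC-tag share was 0.262%, the W1 SOX9 share was 6.99% and the gain at unoccupied sites 36.0%. An alternative chosen after seeing the data, no peak in either no-DOX list, left 1055 regions, with 18.8% on ΔHMG-SOX9 MLL3/4, 0.190% on no-DOX MYC-tag, 6.92% on W1 SOX9 and 6.54% on D0 MLL3/4 peaks, and 17.0% of listed genes. The cause of these moves was not tested beyond the narrower or wider rule itself. No paired analysis was possible because the lists pool the replicates. Intervals cover counting error only, and the lists show no spread between replicates.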
